A study of Mus musculus with 13 samples.

Results

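A set of 9 transcripts, grouped under the formative and primed states of pluripotency, was followed in CGR8 mouse embryonic stem (ES) cells. Not all 9 are particular to these states. The line is feeder-free and was grown in serum and leukemia inhibitory factor (LIF). The 9 genes, *Gbx2*, *Pou3f1*, *Vrtn*, *Otx2*, *Fgf5*, *Foxd3*, *Sox3*, *Zic2* and *Utf1*, were found by their symbols in the table of RNA-seq counts, which holds 24079 genes. *Gbx2*, *Pou3f1* and *Vrtn* were chosen for their strong fall with PhenDC3, so their changes are described and not tested. Both groups carried 0.5% DMSO for 48 h, alone in the control and with 10 µM PhenDC3, a bisquinolinium ligand that stabilizes G-quadruplexes (G4), in the treated cells. RNA-seq gave 3 replicates of each condition, and sequencing of short nascent strands (SNS-seq), which maps replication origins, gave 3 control and 2 PhenDC3 replicates. Nothing in the labels says that the RNA replicates came from separate cultures, so p-values measure the spread between these libraries only.

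Naive ES cells resemble the epiblast of the blastocyst before implantation. Formative and primed cells resemble the epiblast after implantation, when the naive factors are shut off and the cells become ready to form the germ layers. *Otx2*, *Pou3f1* (also known as Oct6), *Foxd3*, *Sox3* and *Zic2* encode transcription factors of this transition, several of which act again in the neural plate. *Fgf5* encodes a secreted growth factor and is the classic marker of the post-implantation epiblast. *Utf1* encodes a chromatin-bound factor of pluripotent cells. *Gbx2* encodes a homeobox factor that opposes *Otx2* at the midbrain-hindbrain boundary and, in ES cells, lies downstream of LIF. *Vrtn* encodes vertnin, a DNA-binding protein known for its link to the number of vertebrae.

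The start regions of these genes were examined for predicted G4, because the ligand binds G4. RefSeq windows of GRCm38.p6, from 250 bases before to 50 after a start site, were found for 6 of the 9 genes, not for *Pou3f1*, *Sox3* and *Zic2*, and came to 11 in all. The search was for at least 4 runs of GGG or longer with loops of 1 to 7 bases on either strand (Quadparser), and such a stretch is written in capitals. Of these, 5 windows are shown: *Gbx2* and *Vrtn* because their RNA was lowest relative to control, *Utf1* because it had the highest level of the genes that fell, and *Otx2* and *Foxd3* because their RNA did not pass the test.
Gbx2, chr1:89931127-89931426, - strand: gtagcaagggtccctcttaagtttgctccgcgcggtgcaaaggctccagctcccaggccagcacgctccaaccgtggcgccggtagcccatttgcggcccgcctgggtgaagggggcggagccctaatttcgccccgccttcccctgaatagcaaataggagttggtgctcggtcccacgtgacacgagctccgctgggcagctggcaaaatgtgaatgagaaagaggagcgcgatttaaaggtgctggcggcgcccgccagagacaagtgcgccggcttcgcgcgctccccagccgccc
Vrtn, window 2, chr12:84642305-84642604, + strand: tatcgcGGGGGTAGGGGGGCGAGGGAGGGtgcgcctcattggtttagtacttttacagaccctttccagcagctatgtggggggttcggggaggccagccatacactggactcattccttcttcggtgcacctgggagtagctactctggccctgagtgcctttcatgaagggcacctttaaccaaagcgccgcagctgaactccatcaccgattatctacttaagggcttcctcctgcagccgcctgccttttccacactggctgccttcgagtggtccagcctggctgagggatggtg
Otx2, window 4, chr14:48662685-48662984, - strand: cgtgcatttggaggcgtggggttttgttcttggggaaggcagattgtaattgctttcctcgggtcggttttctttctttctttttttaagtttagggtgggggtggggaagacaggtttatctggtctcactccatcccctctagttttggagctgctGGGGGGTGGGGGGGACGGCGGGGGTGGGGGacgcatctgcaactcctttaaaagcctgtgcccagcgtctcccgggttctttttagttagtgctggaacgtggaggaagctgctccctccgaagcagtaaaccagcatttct
Foxd3, chr4:99656049-99656348, + strand: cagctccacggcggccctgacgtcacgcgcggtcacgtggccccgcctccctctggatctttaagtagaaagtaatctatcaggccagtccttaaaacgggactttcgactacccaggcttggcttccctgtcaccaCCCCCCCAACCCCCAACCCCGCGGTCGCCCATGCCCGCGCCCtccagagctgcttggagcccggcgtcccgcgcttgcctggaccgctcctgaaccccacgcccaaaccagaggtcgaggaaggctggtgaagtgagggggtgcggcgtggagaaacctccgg
Utf1, chr7:139943606-139943905, + strand: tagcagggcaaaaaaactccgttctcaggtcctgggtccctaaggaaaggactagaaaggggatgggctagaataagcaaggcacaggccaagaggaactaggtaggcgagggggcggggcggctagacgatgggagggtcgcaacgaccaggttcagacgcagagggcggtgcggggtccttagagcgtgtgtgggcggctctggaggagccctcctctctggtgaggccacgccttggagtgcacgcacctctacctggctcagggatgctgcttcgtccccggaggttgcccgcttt
No stretch was found in the *Gbx2* and *Utf1* windows, nor in *Vrtn* window 1. *Vrtn* window 2 held a stretch of 23 bases on the gene's strand, and window 3 one of 18 bases. A stretch of 30 bases lay in *Otx2* window 4, on the gene's strand, and the other *Otx2* windows held none. *Foxd3* held 42 bases on the opposite strand, and *Fgf5*, whose window is not printed, held 23 bases on its own strand. Of 11 windows, 5 had a match, against 18.6% of 32851 RefSeq windows and 28.0% of the 14066 windows of genes tested for expression. The 5 windows belonged to 4 of 6 genes. Shares by gene were not computed, and *Vrtn* and *Otx2* had several windows each. A match was present at genes whose RNA fell (*Vrtn*, *Fgf5*) and at genes whose RNA did not pass the test (*Otx2*, *Foxd3*). The letters GGGCGG, on either strand, were in the *Gbx2*, *Fgf5* and *Utf1* windows and in 35.7% of all windows and 61.9% of those of tested genes.

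The 9 genes split by their RNA. *Gbx2*, *Pou3f1* and *Vrtn* were down to a few percent of control, *Sox3*, *Fgf5* and *Utf1* fell to between 10.1% and 24.6% of control, and *Otx2*, *Foxd3* and *Zic2* did not pass the test. In bulk RNA, fewer cells with a transcript and less transcript per cell cannot be told apart. Levels are given in CPM, counts scaled to a common library size after normalization by relative log expression. All 9 genes passed the filter on low counts. Each library held between 22232014 and 29486502 counts. The 45S ribosomal RNA gene *Rn45s* took 2.55% to 5.70% of the counts of a control library and at most 1.43% of a PhenDC3 library.

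*Gbx2* stood at 26.2, 34.0 and 27.5 CPM in control replicates 1, 2 and 3 and at 0.868, 0.333 and 0.798 CPM in PhenDC3 replicates 1, 2 and 3. These levels rest on 633 to 748 counts in a control library and on 8 to 25 counts in a PhenDC3 library. The groups did not overlap, and the mean with PhenDC3 was 2.28% of the control mean. The log2 fold change was -5.42 ± 0.28 (standard error, SE), number 2 in order of fall among 13972 genes tested.

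*Pou3f1*, which encodes a POU-domain factor of the early post-implantation epiblast, had 7.46, 14.4 and 15.5 CPM in the controls and 0.694, 0.583 and 1.20 CPM with PhenDC3. Control replicate 1 was the lowest of the controls and still far above every PhenDC3 library. The log2 fold change was -3.90 ± 0.36 (SE), and PhenDC3 cells retained 6.61% of the control mean.

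*Vrtn* was the most variable of the genes in the controls, with 2.75, 3.37 and 8.54 CPM, and had 0.417, 0.0416 and 0.109 CPM with PhenDC3. Control replicate 3 was 3.10 times control replicate 1, yet the conditions did not overlap. The log2 fold change was -4.59 ± 0.67 (SE). The PhenDC3 values rest on 12, 1 and 3 counts, so their relative order is not informative, and without PhenDC3 replicate 1 the log2 fold change was -5.88.

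*Sox3*, a SoxB1 factor of epiblast and neural progenitors, had 1.34, 1.55 and 3.43 CPM in the controls and 0.0694, 0.208 and 0.363 CPM with PhenDC3. It fell by 3.27 ± 0.57 (SE) on the log2 scale (edgeR quasi-likelihood test, adjusted p = 0.00261), from 34 to 79 counts in a control library to 2 to 10 with PhenDC3. The conditions did not overlap. *Fgf5* had 1.41, 1.09 and 1.08 CPM in the controls and 0.208, 0.125 and 0.508 CPM with PhenDC3. It fell by 2.06 ± 0.46 (SE) on the log2 scale (adjusted p = 0.00821). The PhenDC3 libraries held 3 to 14 *Fgf5* counts, and all lay below the controls.

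*Utf1* had 159, 257 and 283 CPM in the controls and 53.8, 51.9 and 65.8 CPM with PhenDC3. The fall of 2.02 ± 0.21 (SE) on the log2 scale passed the test (adjusted p = 0.000234), and the mean with PhenDC3 was 24.6% of control. Even the lowest control was more than every PhenDC3 library.

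*Otx2*, a homeobox factor at the head of the formative programme, had 65.6, 66.9 and 82.8 CPM in the controls and 69.3, 72.4 and 72.6 CPM with PhenDC3. The PhenDC3 values lay within the range of the controls. The log2 fold change of -0.0036 ± 0.12 (SE, adjusted p = 0.984) had a 95% confidence interval from -0.27 to 0.27. *Foxd3*, a forkhead factor needed for the exit from naive pluripotency, had 21.4, 30.4 and 30.8 CPM in the controls and 32.4, 29.4 and 29.3 CPM with PhenDC3, and the groups overlapped. Its log2 fold change was 0.15 ± 0.15 (SE, adjusted p = 0.488), with a 95% confidence interval from -0.20 to 0.50.

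*Zic2*, a zinc-finger factor of the epiblast and the neural plate, had 35.5, 29.6 and 27.7 CPM in the controls and 26.6, 27.0 and 20.9 CPM with PhenDC3. Every PhenDC3 library lay below every control, by a narrow margin. The log2 fold change of -0.32 ± 0.15 (SE) did not pass the test (adjusted p = 0.126), and its 95% confidence interval ran from -0.65 to 0.02.

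Leaving aside the 3 genes chosen for their fall, 3 of 6 genes were called lower and none higher. Among all genes tested, 36.8% were called, 18.7% lower and 18.0% higher, so a change in expression was common in this comparison. No overlap between conditions was seen for 7 of the 9 genes, all lower with PhenDC3. Of all genes tested, 50.5% did not overlap, 25.7% in this direction. The 7 genes include *Gbx2*, *Pou3f1* and *Vrtn*, for which this follows from the choice.

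**Figure D1:**
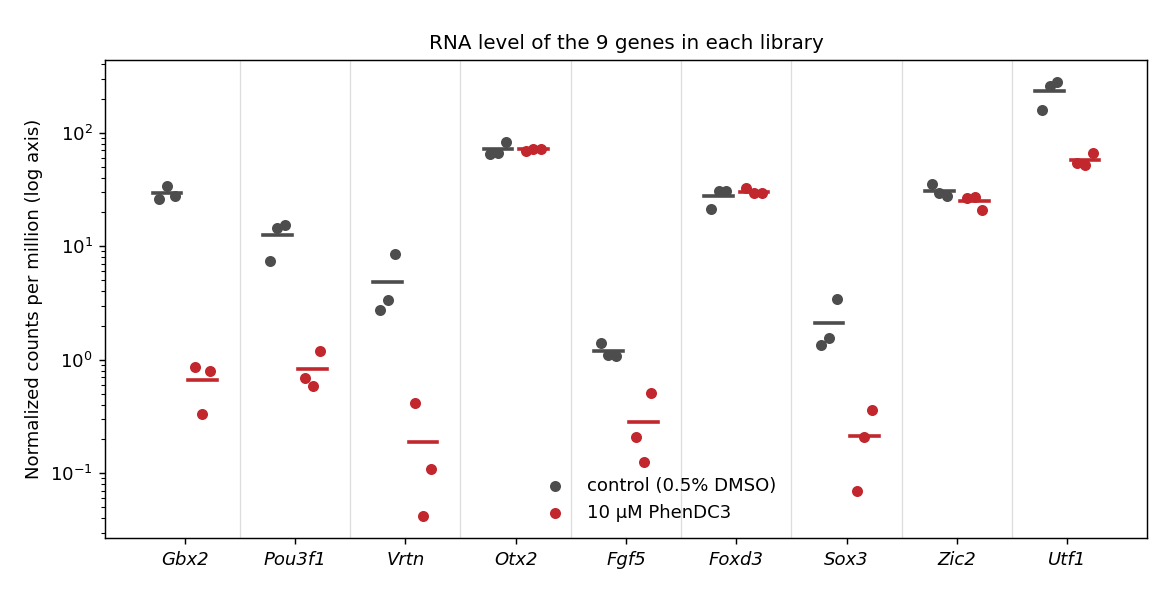
RNA level of each gene in CPM (log axis). Points are the 3 replicates of a condition, in order from left to right, and lines are means; *Gbx2* sits at 26.2 to 34.0 in controls and at 0.333 to 0.868 with PhenDC3, while the groups overlap for *Otx2* and *Foxd3*.

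Control replicates differed among themselves. Control replicate 3 had the highest level of 6 of the 9 genes, *Pou3f1*, *Vrtn*, *Otx2*, *Foxd3*, *Sox3* and *Utf1*. Control replicate 1 was highest for *Fgf5* and *Zic2*, and control replicate 2 for *Gbx2*. The highest control was 1.26 times the lowest for *Otx2*, 1.30 times for *Gbx2*, 1.78 times for *Utf1*, 2.08 times for *Pou3f1* and 2.56 times for *Sox3*.

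Levels were compared between genes per kb of annotated exon, where all RefSeq transcripts of a gene were merged. In control cells *Utf1* led with 201 ± 56.3 CPM per kb (SD, n = 3). *Gbx2* (13.7 ± 1.99), *Otx2* (12.7 ± 1.69), *Foxd3* (11.6 ± 2.24) and *Zic2* (10.4 ± 1.37) followed, and neighbours in this order overlapped in their replicates. *Pou3f1* (4.14 ± 1.45) came next, apart from its neighbours on both sides. *Vrtn* (1.35 ± 0.882) and *Sox3* (1.02 ± 0.557) overlapped, and *Fgf5* (0.478 ± 0.0749) was last.

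With PhenDC3 the means came in another order below *Utf1* (49.3 ± 6.49 CPM per kb). *Foxd3* (12.8 ± 0.742) and *Otx2* (12.6 ± 0.324) overlapped in their replicates, and *Zic2* (8.36 ± 1.16) lay below them. *Gbx2*, which overlapped *Otx2* in the controls, was at 0.313 ± 0.137 and overlapped *Pou3f1* (0.274 ± 0.109). *Fgf5*, *Sox3* and *Vrtn* were last, at 0.112, 0.103 and 0.0524 CPM per kb, and each overlapped the next.

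**Figure D2:**
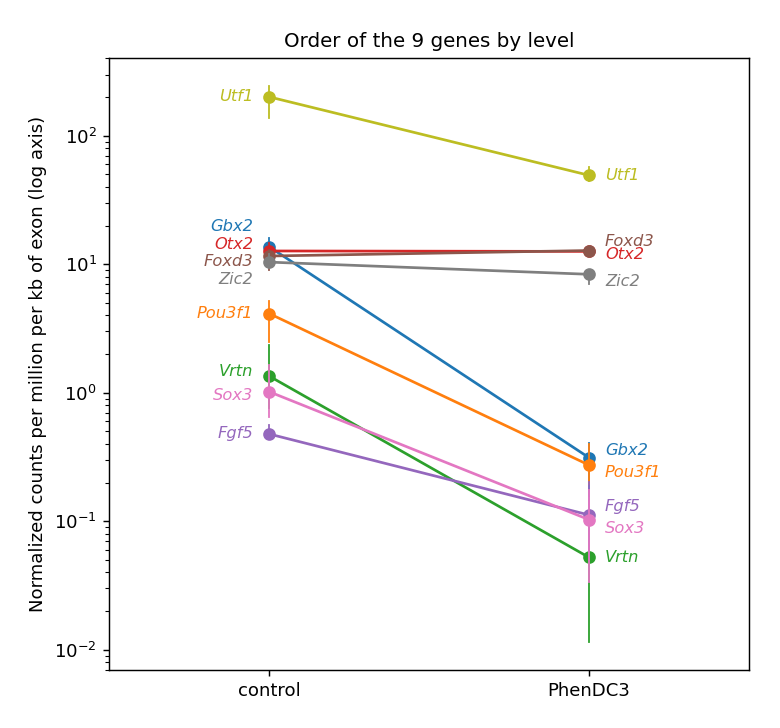
Mean level per kb of exon (log axis) in control and PhenDC3 cells, with vertical lines from the lowest to the highest of 3 replicates. *Gbx2* starts beside *Otx2*, *Foxd3* and *Zic2* and ends beside *Pou3f1* at 0.313.

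A list of 14 further genes of the formative and primed states was read from the same test. It was chosen with earlier results of these data known. Of the 13 that passed the filter, 10 were lower, 1 was higher and 2 did not pass the test. Among all genes tested, 18.7% were lower and 18.0% higher. The median log2 fold change of the list was -1.57, against 0.01 over all genes tested. Both de novo DNA methyltransferases were among the 10 lower genes. *Dnmt3b* had 360, 363 and 590 CPM in the controls and 131, 98.9 and 145 CPM with PhenDC3 (log2 fold change -1.80 ± 0.22 SE, adjusted p = 0.000486), and *Dnmt3a* fell by 1.57 ± 0.19 (SE) on the log2 scale (adjusted p = 0.000491). The factors *Sox11* (-3.20 ± 0.35 SE), *Grhl2* (-2.37 ± 0.19), *Etv4* (-2.22 ± 0.15) and *Sox4* (-1.86 ± 0.43) were lower too, as was the growth factor gene *Fgf15* (-3.0 ± 0.20). *Lin28b*, which encodes a blocker of let-7 maturation, fell by 1.52 ± 0.25 (SE), and *Tead2* fell by 0.90 ± 0.13 (SE) on the log2 scale. The exception was *Nodal*, a signal of the epiblast, with 54.7, 51.2 and 45.8 CPM in the controls and 82.9, 67.4 and 77.6 CPM with PhenDC3 (log2 fold change 0.59 ± 0.12 SE, adjusted p = 0.00567). *Sall2* (-0.07 ± 0.17 SE) and *Cdh2* (-0.22 ± 0.27 SE) did not pass the test, and *Wnt8a* was under the filter.

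Most genes on a list of the naive state were higher. This list and the next were also chosen with earlier results of these data known. Of the 13 naive genes, 8 were higher, 1 was lower and 4 did not pass the test. Their median log2 fold change was 0.71. Of all genes tested, 18.0% were higher and 18.7% lower. *Nanog* had 492, 473 and 468 CPM in the controls and 1184, 1040 and 1107 CPM with PhenDC3 (log2 fold change 1.22 ± 0.10 SE, adjusted p = 0.000101). *Tbx3* rose by 1.82 ± 0.16 (SE), *Tfcp2l1* by 1.62 ± 0.22, *Dppa3* by 1.46 ± 0.14, *Prdm14* by 1.43 ± 0.13 and *Klf4* by 0.82 ± 0.11 on the log2 scale. *Nr0b1* was the naive gene that fell (-1.38 ± 0.17 SE), and *Esrrb*, *Klf2*, *Klf5* and *Zfp42* did not pass the test. Of 6 genes shared by the states of pluripotency, *Sox2* (log2 fold change 0.22 ± 0.10 SE) and *Sall4* (0.08 ± 0.13) did not pass the test, while *Pou5f1* (-0.45 ± 0.11), *Tdgf1* (-0.67 ± 0.15), *Dppa4* (-0.84 ± 0.11) and *Lin28a* (-1.25 ± 0.22) fell. *Pou5f1*, which encodes Oct4, remained at 1089 ± 41.7 CPM (SD, n = 3) with PhenDC3, against 1487 ± 114 in the controls.

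**Figure D3:**
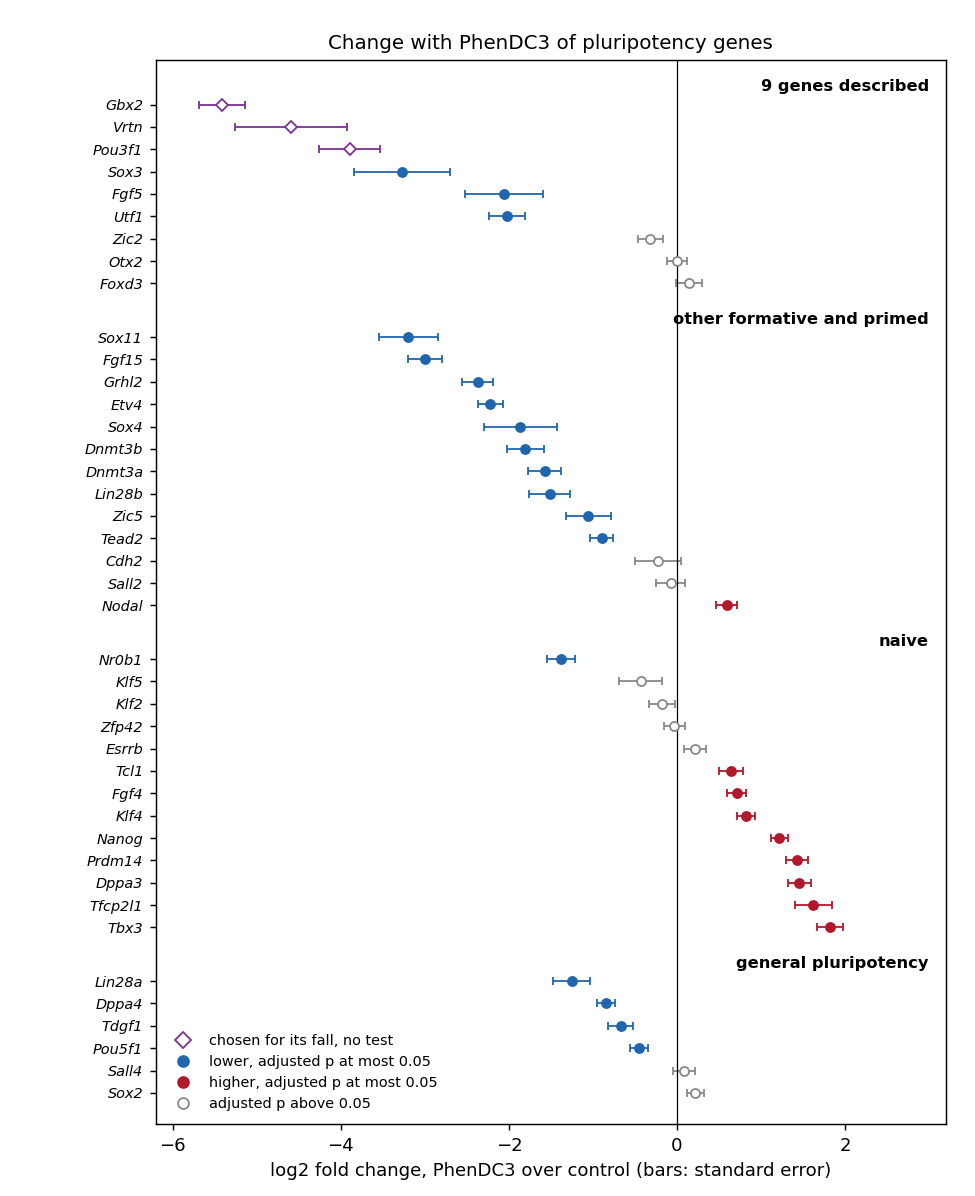
log2 fold change with PhenDC3 of the 9 genes and of 3 lists of pluripotency genes, with standard errors. Filled points passed the test, and open diamonds mark the 3 genes chosen for their fall. Of 13 other formative and primed genes, 10 were called lower, against 18.7% of all genes tested. Of 13 naive genes, 8 were called higher, against 18.0%.

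Genes of other cell types were read beside these changes. The primitive endoderm and trophoblast list summed to between 48.1 and 112 CPM in the controls and between 102 and 164 CPM with PhenDC3. Of its 8 genes that passed the filter, 5 rose, against 18.0% of all genes tested. Control replicate 3, highest for 6 of the 9 genes, had the lowest sum. The largest part of each control sum was *Dab2*, with 64.8, 49.9 and 24.1 CPM, which did not pass the test (adjusted p = 0.695). The fibroblast list summed to 6.46 to 7.79 CPM in the controls and to 4.49 to 7.0 CPM with PhenDC3. Of its genes, *Thy1* had 5.91, 4.91 and 4.29 CPM in the controls, and *Postn* was at 0 there. *Elf5*, of the endoderm and trophoblast list, was also near the floor in the controls, at 0.109, 0.0455 and 0.0434 CPM. The part of these cells in the changes of the 9 genes was not tested.

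Genes of the same families as *Gbx2*, *Pou3f1*, *Otx2*, *Foxd3*, *Sox3* and *Zic2* were read as well. Of 14 such genes, 7 passed the filter. Of these, 1 rose and 1 fell, against 18.0% and 18.7% of all genes tested, and 5 did not pass the test. The number that rose was 2 without control replicate 2 and 3 without control replicate 3. *Pou3f2*, a POU factor of neural cells related to *Pou3f1*, was at 0.254, 0.182 and 0.130 CPM in the controls and at 1.39, 1.46 and 1.31 CPM with PhenDC3 (log2 fold change 2.82 ± 0.36 SE, adjusted p = 0.000609). Per kb of exon its mean with PhenDC3 was 0.221 ± 0.0121 CPM (SD, n = 3), beside 0.274 ± 0.109 for *Pou3f1*. *Zic5* fell by 1.05 ± 0.26 (SE) on the log2 scale (adjusted p = 0.0139). *Sox1*, of the same family as *Sox3*, had a log2 fold change of 0.63 (adjusted p = 0.0747), and *Otx1* one of 1.40 (adjusted p = 0.0506), neither of which passed the test. *Gbx1*, *Foxd1*, *Foxd2*, *Foxd4*, *Zic1*, *Zic4* and *Pou3f4* were under the filter.

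Neighbouring genes, with a start within 100 kb of the start of one of the 9 genes, numbered 27 in the table, of which 13 were tested. Of these, 5 were lower and 2 higher, where 18.7% and 18.0% of all genes tested were. *Kndc1*, whose start lies 49160 bp from that of *Utf1*, had a mean of 15.1 CPM in the controls and 3.87 CPM with PhenDC3 (log2 fold change -1.96 ± 0.23 SE, adjusted p = 0.000387). The 2 higher neighbours also lay near *Utf1*: *Adam8* (log2 fold change 1.01, adjusted p = 0.0189) and *6430531B16Rik* (1.47, adjusted p = 0.0363). The latter was low, with means of 0.352 CPM in the controls and 0.977 CPM with PhenDC3. *Zic5* starts 9726 bp from *Zic2*, and its fall is given above; the difference from *Zic2* was not tested. *Fhl3* (-0.60), *Utp11l* (-0.46) and *Sf3a3* (-0.29) were the lower neighbours of *Pou3f1*, with log2 fold changes in parentheses. *Abcd4*, 23534 bp from *Vrtn*, did not pass the test (0.06, adjusted p = 0.750). *Otx2os1*, 1644 bp from *Otx2*, was under the filter, and no neighbour of *Gbx2*, *Otx2* or *Fgf5* passed it. None of the 27 was a neighbour of *Sox3*.

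The genes whose profile over the 6 libraries was most like that of the 3 chosen genes were found by the Euclidean distance of log2 CPM after subtraction of the control mean, among 12480 genes with a mean of at least 1 CPM. For *Gbx2* these were *Lef1* (distance 1.20), *Slc7a7* (2.21) and *Vrtn* (2.46). *Lef1*, which encodes a transcription factor of the Wnt pathway, went from a mean of 25.3 CPM to 0.405 CPM. For *Pou3f1* they were *Myrf* (0.829), *Nlrc4* (1.10) and *Enpp2* (1.13), and for *Vrtn* they were *Myrf* (1.75), *Enpp2* (1.84) and *Spry4* (1.98), the last a feedback inhibitor of FGF signalling. These distances use the same contrast as the choice of the genes and are a description.

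SNS-seq, which was not used to choose the genes, listed peaks within 2 kb of a start site for most of them. Peaks of different replicates did not have to coincide to be counted. A window of 2 kb on either side of a start site was overlapped by an SNS-seq peak for 8 of the 9 genes in 2 or 3 controls. In both PhenDC3 lists this was so for 5 genes. *Fgf5* had no peak in any list. Among the genes tested for expression that have a curated start site, 62.2% met the first criterion and 41.5% the second. Control lists held between 79377 and 120882 peaks, and PhenDC3 lists 144103 and 102400. Near the 9 genes there were 28, 24 and 14 peaks in control replicates 1, 2 and 3, covering 10202, 6460 and 2934 bp, and 22 and 9 peaks in PhenDC3 replicates 1 and 2, covering 5165 and 1933 bp. The lists give no read counts, and each condition has its own RNase-treated background library, so no test was made.

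The genes differed in where their peaks lay. *Gbx2* had 4 peaks in control replicates 1 and 2 and none in control replicate 3; the highest lay 373 bp and 439 bp downstream of the start, with a fold enrichment of 6.74 and 8.11 over the RNase-treated library. With PhenDC3 a single peak was listed in replicate 1, 382 bp downstream with a fold enrichment of 6.08, and none within 2 kb in replicate 2. *Pou3f1* had 7, 4 and 2 peaks in control replicates 1, 2 and 3, 4 in PhenDC3 replicate 1 and none in replicate 2. *Sox3* had 3, 3 and 2 peaks in the controls, the highest with a fold enrichment of 11.8, 11.4 and 6.69 at 561 to 605 bp downstream. PhenDC3 replicate 1 listed 3 peaks as well, the highest 475 bp upstream with a fold enrichment of 4.59 and another 597 bp downstream with 3.85, and replicate 2 listed none. These 3 genes, whose RNA was lower with PhenDC3, had a peak within 2 kb of a start site in only 1 PhenDC3 list. *Vrtn* and *Utf1*, whose RNA was lower too, had peaks in both. The window matters here: within the gene body extended by 2 kb, 8 genes instead of 5 had a peak in both PhenDC3 lists.

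At *Vrtn* the listed peaks differed in place. All 3 controls had peaks at 947 to 980 bp and at 1219 to 1250 bp upstream of the start site of window 1, and neither PhenDC3 list had one there. PhenDC3 replicate 1 did list a peak 255 bp downstream of the start site of window 1, with a fold enrichment of 3.51. Peaks at 596 and 648 bp downstream of that of window 3 were listed in both PhenDC3 replicates, with fold enrichments of 5.12 and 5.55, and in control replicate 2 at 612 bp with 5.94. *Utf1* kept a peak at 39 bp upstream of its start, within the promoter window printed above, in control replicate 1 (fold enrichment 12.1) and PhenDC3 replicate 1 (9.41). Control replicate 2 had it at 34 bp with 4.85, and control replicate 3 and PhenDC3 replicate 2 did not list it. A peak between 714 and 872 bp downstream of the *Utf1* start was in all 5 lists.

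The genes whose RNA did not pass the test also had peaks in both PhenDC3 lists. *Otx2* had 1 peak in each of control replicates 1 and 3 and none in replicate 2, against 3 and 2 peaks with PhenDC3. Its highest peak with PhenDC3 lay 1218 and 1228 bp downstream of the nearest start, with fold enrichments of 11.5 and 8.25, and 2.40% and 15.1% of the peaks of those lists were stronger by −log10 p. Control replicate 3 listed this peak at 1251 bp with 6.69. The printed *Otx2* window with a predicted G4 was touched by peaks of control replicate 1, with its summit at 94 bp, and of PhenDC3 replicate 1, at 76 bp. All 5 lists held a *Zic2* peak 1291 to 1396 bp upstream, with fold enrichments of 10.2, 7.95 and 8.54 in the controls and 3.21 and 4.29 with PhenDC3. Another *Zic2* peak had a fold enrichment of 11.96 in PhenDC3 replicate 1, 854 bp upstream, and of 6.16 in replicate 2, 842 bp upstream. Control replicate 2 listed it at 877 bp with 3.15, and in control replicate 1 the wide upstream peak covers this position. *Foxd3* had a peak at 266 to 317 bp upstream in all 5 lists, with fold enrichments of 9.41, 9.23 and 10.0 in the controls and 6.70 and 5.77 with PhenDC3. A *Foxd3* peak at 1845 to 1933 bp downstream was in all 5 lists too, with 9.63, 7.82 and 7.27 in the controls and 3.71 and 3.22 with PhenDC3. A peak at 706 to 765 bp downstream was in all 3 controls and in neither PhenDC3 list.

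**Figure D4:**
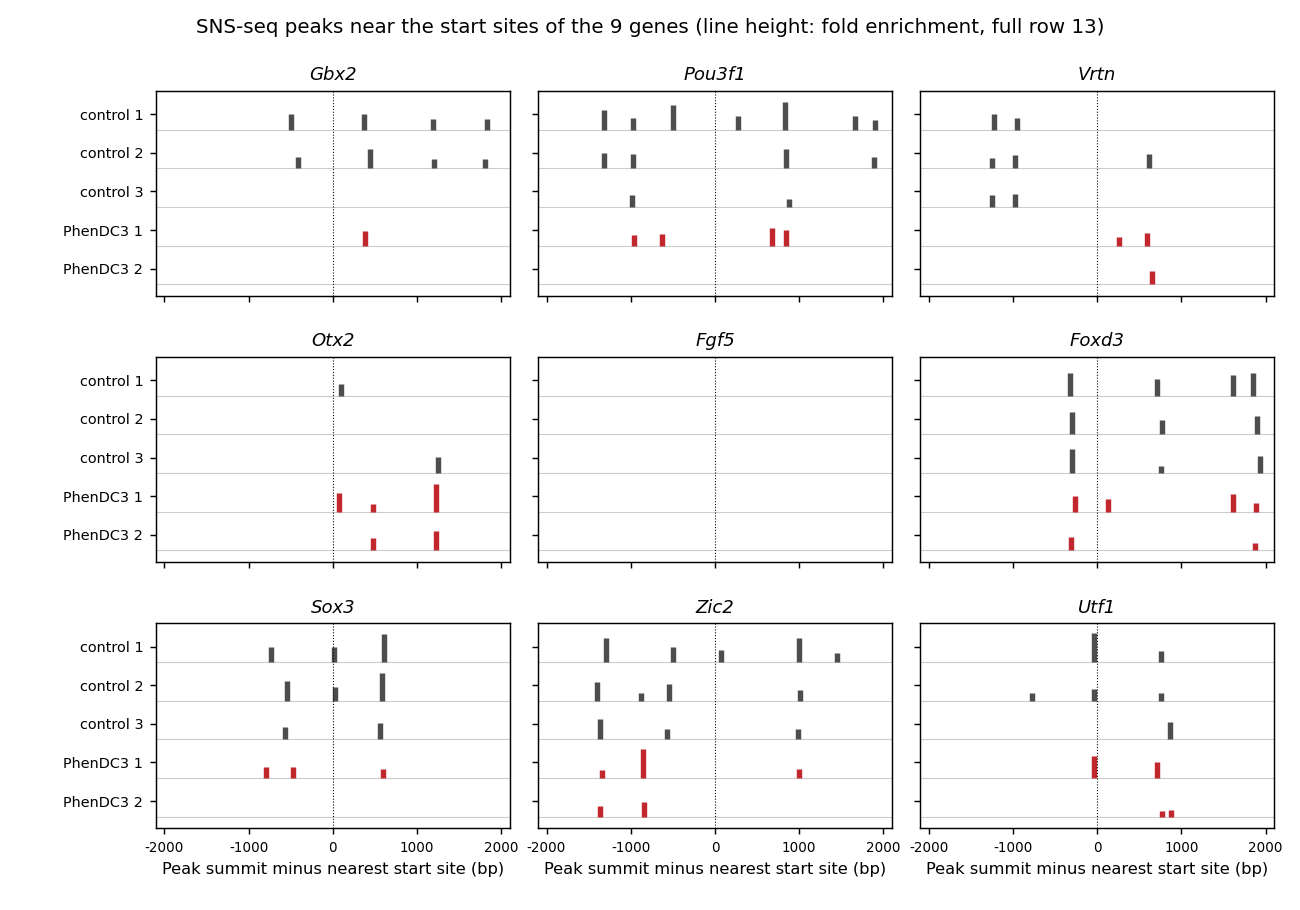
SNS-seq peaks within 2 kb of a start site, by replicate. The x axis is the distance of the peak summit from the nearest curated start site in bp, negative upstream. The height of a line is the fold enrichment (a full row is 13). Within 2 kb, PhenDC3 replicate 2 has no peak at *Gbx2*, *Pou3f1* and *Sox3*, and *Otx2* has more peaks with PhenDC3 than in controls.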

How the data were processed

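CGR8 ES cells were compared after 48 h in 0.5% DMSO or 10 µM PhenDC3. The authors aligned the RNA-seq reads using TopHat (with Bowtie2), and HTSeq-count gave reads per gene; the deposited counts are raw, and the annotation and strand setting of the counting are not given in the sources used here. SNS-seq peaks, deposited per replicate on mm10, were called by the authors with MACS2 against the RNase-treated library of the condition and kept where SICER found a region; fold enrichment (a ratio) and −log10 p are the deposited values. The authors' DESeq2 table (fold changes and p-values) and normalized pseudo-counts were not used. Depth was 22232014 to 29486502 counts per RNA library.

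Groups and replicates come from the sample titles. Counts were normalized by relative log expression, filtered with filterByExpr and tested with edgeR 4.0.16 (robust quasi-likelihood test, Benjamini-Hochberg over 13972 genes, adjusted p at most 0.05). Standard errors are the fold change divided by the square root of F. The code was tested on simulated data. Alternatives were TMM, no filter, DESeq2, a replicate block, each library left out, and other peak windows and G4 rules. Peaks were assigned to curated RefSeq start sites of GRCm38.p6. Named are the 9 genes, genes of fixed lists, neighbours within 100 kb and the 3 nearest profiles; of the lists, called genes and the highest expressed were preferred, and the other list and related genes named were chosen after their values were seen. The 9 genes and the lists were chosen with earlier results of these data known. A gene of these lists is not reported here and is left out of their counts and medians.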

Additional observations from a re-analysis of the deposited data

How the results depend on the processing

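The direction of the 6 genes that were lower held in all 10 alternatives: the log2 fold change lay between -5.65 and -5.12 for *Gbx2*, -4.26 and -3.71 for *Pou3f1*, -5.88 and -3.93 for *Vrtn*, -3.92 and -2.74 for *Sox3*, -2.79 and -1.74 for *Fgf5*, and -2.24 and -1.86 for *Utf1*. The highest adjusted p was 0.0119 for *Sox3*, 0.0433 for *Fgf5* and 0.00227 for *Utf1*. Values near 0 changed sign without passing the test: *Otx2* was at 0.0034 with the replicate block and between -0.070 and 0.10 with 1 library left out, above 0 without control replicate 3 or PhenDC3 replicate 1, and *Foxd3* was between -0.013, without control replicate 1, and 0.23. With libraries left out, 1623 to 2727 genes were called lower and 1709 to 2689 higher, the fewest without PhenDC3 replicate 1, against 2617 and 2518 with all.

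In the column headers of the counts, control and PhenDC3 libraries of the same replicate number carry consecutive leading numbers, whose meaning is not given. Deviations from the group means correlated at 0.09, 0.54 and 0.41 for replicates 1, 2 and 3, and each library correlated best with its own number. Headers and correlations hint at pairs, but neither the labels nor the methods name a pairing. With the replicate block, 3692 genes were called lower and 3797 higher, and *Zic2* passed the test (log2 fold change -0.32, adjusted p = 0.0218), where the range over all its alternatives was 0.0218 to 0.353. The block also gave 5 instead of 1 related genes higher, 5 instead of 2 neural plate genes higher and 2 instead of 1 lower, and 1 more call among the naive genes (lower), the general pluripotency genes (higher), the streak genes (lower) and the fibroblast genes (higher).

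The number of genes with a peak in both PhenDC3 lists was 8 instead of 5 within the gene body extended by 2 kb. With a PhenDC3 list left out, a peak in the other list sufficed, which is a looser criterion. Replicate 1 alone had a peak near 8 genes and replicate 2 alone near 5. Under the G4Hunter rule, with a threshold of 1.5 over 25 bases, 9 of 11 windows had a predicted G4. This was so for 41.6% of all windows and 58.0% of those of tested genes. The 9 windows belonged to 6 of 6 genes instead of 4, and shares by gene were not computed. The study used a G4Hunter threshold of 2, and the highest scores of *Gbx2* (1.76) and *Utf1* (1.88) were below it. Depth limits *Vrtn*, *Sox3* and *Fgf5* with PhenDC3, which had 1 to 14 counts in a library.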

Other observations

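Lineage markers were read from the same test, in which 18.0% of all genes tested were higher and 18.7% lower. Of the 10 primitive streak genes, 5 passed the filter and 2 rose, *Gsc* (0.144 CPM in the controls and 1.12 CPM with PhenDC3, log2 fold change 2.97, adjusted p = 0.00642) and *Foxa2* (1.39 and 3.78 CPM, log2 fold change 1.44, adjusted p = 0.00273). No streak gene was called lower, but 1 was without the filter, with DESeq2, with the replicate block, without control replicate 1 and with each PhenDC3 replicate left out in turn. *T*, which encodes Brachyury, was under the filter. Of 8 neural plate genes that passed the filter, *Nes* and *Pou3f2* rose and *Pax6* fell. *Nes*, which encodes an intermediate filament, had a log2 fold change of 1.24 (adjusted p = 0.000264), and *Pax6*, which encodes a paired-box factor, one of -1.88 (adjusted p = 0.00348).

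Among genes of primitive endoderm and trophoblast, *Gata4* (1.01), *Gata6* (0.85), *Sox17* (0.98), *Pdgfra* (0.90) and *Gata3* (3.31) rose on the log2 scale. *Gata3*, a trophoblast factor, went from 0.399, 0.956 and 0.304 CPM in the controls to 5.07, 5.95 and 5.22 CPM with PhenDC3 (adjusted p = 0.000267), while *Cdx2*, of the same lineage, had a log2 fold change of -0.07 (adjusted p = 0.929). Without PhenDC3 replicate 1, 3 genes of this list rose instead of 5. Of 4 fibroblast genes that passed the filter, *Thy1* fell (-1.31, adjusted p = 0.00228).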
